A study of Arabidopsis thaliana with 12 samples.

Results

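NdhS, CRR21 and SECE1 are nuclear genes of Arabidopsis thaliana whose proteins work in the plastid, and their transcript levels were compared between the prpl11 mutant and wild type (WT). NdhS (AT4G23890) and CRR21 (AT5G55740) serve the NADH dehydrogenase-like (NDH) complex of the thylakoid, and SECE1 (AT4G14870) serves its Sec protein translocase. The 3 genes were taken by name, each from the only probe that lists it and no other gene. They are 3 of 689 genes with such a probe, among 3439 probes on the array. They were selected on their function and with their prpl11 minus WT differences on these same arrays known, so those differences are described below and carry no test.

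The samples were total RNA of the prpl11 mutant, which lacks the plastid ribosomal protein PRPL11, on 6 arrays, and of WT on 6 arrays, both in ecotype Columbia 0. The labels number the arrays 1 to 6 in each genotype, and they give no tissue, age, growth condition or mutant allele. Nothing in them says that numbers are separate plants or extractions, so the spread between arrays may be technical.

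The plastid NDH complex takes electrons from reduced ferredoxin and passes them to plastoquinone, and is known for cyclic electron flow around photosystem I and for chlororespiration. It is built from subunits encoded in the plastid genome and made on plastid ribosomes, and from subunits encoded in the nucleus and imported. NdhS is one of the imported subunits, with a fold like that of SH3 domains, and lies where ferredoxin docks. CRR21 is a pentatricopeptide repeat (PPR) protein needed to edit a site in the plastid transcript of ndhD. SECE1 is the small membrane subunit that, together with the channel protein SCY1 and the motor ATPase SECA1, moves proteins such as plastocyanin across the thylakoid membrane or into it.

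Each array gave 1 intensity per probe, in arbitrary units. Array sums lay between 3597 and 3678, and 138 to 148 probes per array were listed at 0. For the comparison, log2 intensities were quantile normalized, which gives all arrays the same set of values and keeps each array's ranking. Of 3331 probes tested with limma, 184 (5.52%) passed a Benjamini-Hochberg adjusted p of 0.05, 82 higher (2.46%) and 102 lower (3.06%) in prpl11. With the replicate number as a block, 649 probes passed (19.5%), 343 higher (10.3%) and 306 lower (9.19%), and with neighbouring numbers averaged to 3 values per genotype 23 passed (0.69%). The level of PRPL11 was not analysed here, since no probe lists it alone, and the genotypes could not be checked on it. No probe was particular to any of 12 genes that mark senescence or non-green organs. Among 9 markers of green tissue only PRK, the phosphoribulokinase of the Calvin cycle, had one, at 0.579 ± 0.072 in prpl11 and 0.822 ± 0.050 in WT (SD, n = 6 arrays each), a log2 difference of -0.51 ± 0.10 (SE, limma adjusted p = 0.00515) and lower in prpl11 in 6 of 6 pairs. How many tested probes were lower in all pairs was not counted. With neighbouring numbers averaged PRK did not pass (limma adjusted p = 0.205). From 1 marker the tissue could not be checked, and in bulk RNA fewer cells of a type and less RNA per cell cannot be told apart.

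NdhS was among the brightest probes and was brighter in prpl11, while SECE1, of middling intensity, was also brighter in prpl11. CRR21, also of middling intensity, was lower in prpl11 on some arrays only. Brightness here belongs to the probe and does not order the genes by transcript level. NdhS averaged 6.95 ± 0.32 in prpl11 and 6.24 ± 0.20 in WT (SD, n = 6 arrays each). SECE1 averaged 0.742 ± 0.051 in prpl11 and 0.633 ± 0.044 in WT (SD, n = 6 arrays each). CRR21 averaged 0.685 ± 0.15 in prpl11 and 0.756 ± 0.094 in WT (SD, n = 6 arrays each). The first 2 differences were wider than the spread between arrays of a genotype, and that of CRR21 was narrower. NdhS and SECE1 were among the 82 probes that passed as higher in prpl11, a group that held 2.46% of tested probes, and CRR21 passed in neither direction. NdhS passed in 13 of 27 alternative fits and SECE1 in 15 of 27, and neither passed with neighbouring numbers averaged, with or without the number pairs as a block, or with genotype within number pair as a random block. Since the genes were chosen knowing their calls, the counts describe them and nothing is read from them.

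**Figure D1:**
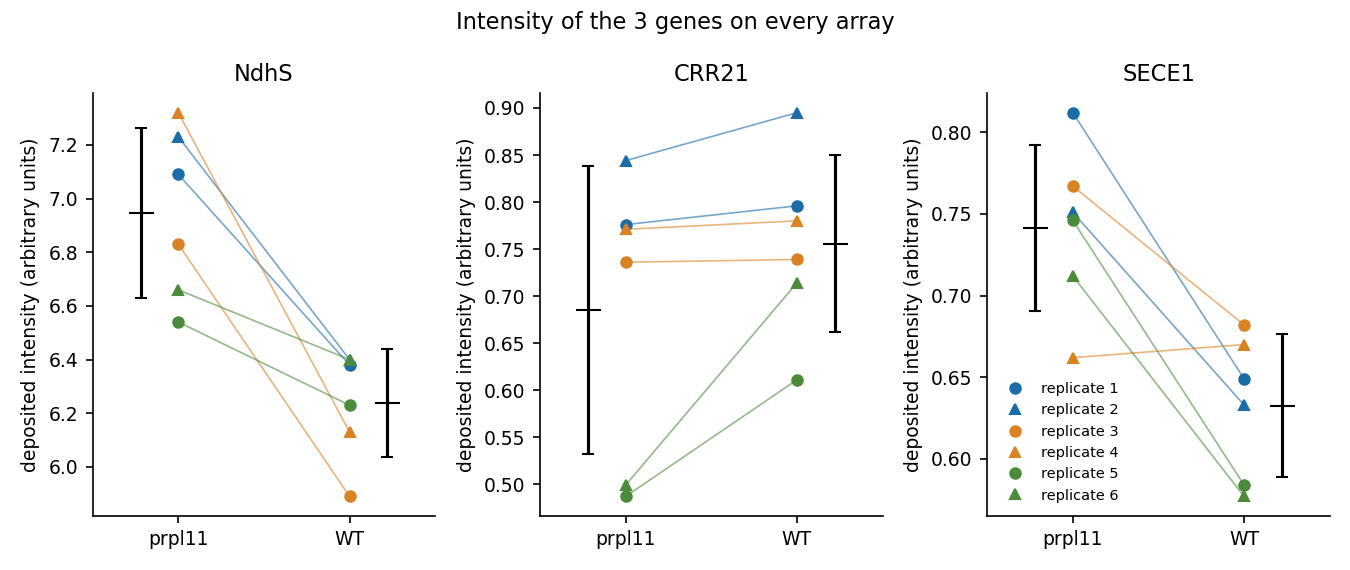
Deposited intensity (arbitrary units) of NdhS, CRR21 and SECE1 on the 6 prpl11 and 6 WT arrays, with lines joining arrays of the same replicate number, colours for neighbouring numbers, and bars for mean ± SD. The vertical axes differ and do not start at 0. All prpl11 arrays lie above all WT arrays for NdhS, 5 of 6 lie above the highest WT array for SECE1, and for CRR21 replicates 5 and 6 are the lowest in both genotypes.

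The NDH subunit NdhS had deposited intensities from 6.54 to 7.32 with a median of 6.96 on the prpl11 arrays, against 5.89 to 6.40 with a median of 6.31 on the WT arrays. The groups did not overlap, although the lowest prpl11 array (replicate 5, 6.54) stood close above the highest WT arrays (replicates 2 and 6, both 6.40). Among the tested probes, 1.62% had all 6 deposited prpl11 values above all 6 WT values. The probe ranked between place 42 and place 53 from the brightest on prpl11 arrays, and between 56 and 59 on WT arrays. A rank depends on no scaling between arrays, and the ranks of the genotypes were 3 places apart at the closest. They come from the same values and add no separate support. The share of tested probes with ranks apart in this way was not counted.

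On the normalized log2 scale NdhS was 2.86 in prpl11 and 2.59 in WT, a difference of 0.27 ± 0.06 (SE), or 1.20-fold. The same comparison of deposited means gave 1.11-fold. The size of the NdhS difference therefore depended on the scaling. Median centring gave 0.16, no normalization 0.15 and cyclic loess, an alternative added after the data were seen, 0.16 on the log2 scale. On these other scalings NdhS did not pass in limma. The 100 brightest probes as a group had a median difference of 0.05 after quantile normalization and 0.05 after median centring, so NdhS exceeded that median by 0.21 and by 0.12. The spread of NdhS moved with the scaling as well. Its log2 SD was 0.14 in prpl11 and 0.03 in WT after quantile normalization, 0.06 in both genotypes after median centring, and 0.07 in prpl11 and 0.05 in WT without normalization.

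By replicate number, NdhS was higher in prpl11 in 6 of 6 pairs, as were 13.7% of tested probes. The normalized differences were 0.37 for numbers 1 and 2, 0.31 for number 3, 0.35 for number 4, 0.15 for number 5 and 0.06 for number 6. On the deposited scale prpl11 exceeded WT 1.11-fold and 1.13-fold at numbers 1 and 2, 1.16-fold and 1.19-fold at numbers 3 and 4, and 1.05-fold and 1.04-fold at numbers 5 and 6. Numbers 5 and 6 held the narrowest differences on both scales. After quantile normalization replicates 5 and 6 of prpl11 lay 0.16 and 0.18 below the prpl11 mean, but after median centring they lay 0.06 and 0.02 below it.

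The Sec subunit SECE1 had intensities from 0.662 to 0.812 with a median of 0.748 in prpl11, against 0.577 to 0.682 with a median of 0.641 in WT. The groups overlapped through 1 prpl11 array: replicate 4, at 0.662, lay below WT replicates 3 and 4, at 0.682 and 0.670. The other 5 prpl11 arrays were above every WT array, and the share of tested probes with this pattern was not counted. SECE1 ranked between place 1068 and place 1402 on prpl11 arrays, and between 1392 and 1718 on WT arrays.

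On the normalized log2 scale SECE1 was -0.43 in prpl11 and -0.66 in WT, a difference of 0.24 ± 0.06 (SE), or 1.18-fold. Deposited means gave 1.17-fold. Unlike that of NdhS, this difference hardly moved with the scaling, at 0.24 with median centring and 0.23 without normalization. It was positive in 6 of 6 pairs, as were 13.7% of tested probes. The normalized differences were 0.28, 0.20, 0.22, 0.05, 0.35 and 0.32 for numbers 1 to 6. The narrowest pair, number 4, turned to -0.02 on the log2 scale of deposited values. On the normalized scale numbers 5 and 6 held the widest SECE1 differences and the narrowest NdhS differences. In SECE1 it was the WT arrays of these numbers that stood low, each 0.10 below the WT mean, while the prpl11 arrays lay within 0.02 of theirs.

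The editing factor CRR21 had intensities from 0.487 to 0.844 with a median of 0.754 in prpl11, against 0.611 to 0.895 with a median of 0.759 in WT. The medians nearly coincided, and the groups overlapped except for prpl11 replicates 5 and 6, at 0.487 and 0.499, which lay below every WT array. CRR21 ranged over places 1038 to 2026 on prpl11 arrays and 888 to 1638 on WT arrays. The normalized log2 difference was -0.14 ± 0.13 (SE), or 0.91-fold.

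The CRR21 difference lay in numbers 5 and 6, at -0.28 and -0.45. At numbers 1 to 4 it was -0.08, -0.13, 0.05 and 0.04, so 4 of 6 pairs were negative. Without replicates 5 and 6 of both genotypes the difference was -0.03. CRR21 was also lowest at these numbers within each genotype: the mean of replicates 5 and 6 lay 0.40 below the prpl11 mean and 0.17 below the WT mean on the log2 scale. Replicates 5 and 6 were the lowest arrays of both genotypes for 12.7% of tested probes, so this order was common.

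CRR21 and SECE1 differed in how much they varied between arrays of a genotype. The quantile normalized log2 SD of CRR21 was 0.31 in prpl11 and 0.18 in WT, and that of SECE1 0.08 in prpl11 and 0.09 in WT (n = 6 arrays each), while that of NdhS depended on the scaling, as given above. Over all tested probes the median SD was 0.15 in prpl11 and 0.13 in WT. CRR21 was thus more variable than the middle probe in both genotypes and SECE1 less. Once each genotype's mean was taken off, Pearson's r over the 12 quantile normalized arrays was 0.89 between NdhS and CRR21, -0.01 between NdhS and SECE1, and 0.16 between CRR21 and SECE1. After median centring the same values were 0.40, -0.71 and 0.04, and without normalization 0.71, -0.35 and 0.28. All of them moved with the scaling, and those that involve NdhS moved most. These correlations are descriptions, since arrays of a number, and of neighbouring numbers, share array-wide deviations.

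Neighbouring numbers (1 and 2, 3 and 4, 5 and 6) went together across the whole array. The median absolute log2 difference over probes was 0.08 between such arrays of the same genotype and 0.16 between its other arrays. NdhS differed between prpl11 and WT by 0.37, 0.33 and 0.10 in these 3 groups of arrays, SECE1 by 0.24, 0.14 and 0.33, and CRR21 by -0.11, 0.04 and -0.36. The sign of NdhS and of SECE1 was thus the same in all 3 groups of arrays, and that of CRR21 was not. How many of all tested probes kept their sign in this way was not counted. The genes were also chosen with their differences known, so nothing is read from these signs.

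Differences of nearby probes were set beside those of the 3 genes. Probe numbers fold into a grid of 48 columns and 16 rows of cells with 6 probes each, a layout inferred from the likeness of prpl11 minus WT differences of probes that it places side by side. Spearman's rho of these differences was 0.19 for probes 1 column apart and 0.17 for probes 1 row apart, against a median of 0.01 over 1000 spacings of probe number. A contrast that uses no prpl11 array, WT replicates 5 and 6 minus WT replicates 1 to 4, gave 0.46, 0.37 and 0.06. In the cell of CRR21 and the 8 adjoining cells, 31 of 34 other probes had negative differences, as did 46.4% of all tested probes, with a median of -0.11 (quartiles -0.19 and -0.06). Since the layout was drawn from these differences, the count is a description. In deviations within WT alone, a measure not used to draw the layout, replicates 5 and 6 of these neighbours lay 0.21 below the WT mean, and those of CRR21 0.17 below it. Their median in numbers 5 and 6 was -0.23 and -0.32, and between -0.04 and 0.04 in numbers 1 to 4, lowest at the numbers where CRR21 was lowest. Relative to these neighbours CRR21 was at -0.03.

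Around NdhS, 27 neighbouring probes had a median difference of 0.03, and NdhS exceeded it by 0.23 after quantile normalization. Pair by pair these neighbours did not follow NdhS, with medians of -0.06 at numbers 3 and 4, where NdhS had 0.31 and 0.35, and of 0.15 and 0.09 at numbers 5 and 6, where NdhS had 0.15 and 0.06. Around SECE1, 40 neighbours had a median of 0.07, and SECE1 exceeded it by 0.17. Of the neighbours, 3 were called higher and none lower around SECE1, and 1 higher and 1 lower around each of NdhS and CRR21, where 2.46% of tested probes were called higher and 3.06% lower. The part of array position in these differences was not tested.

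**Figure D2:**
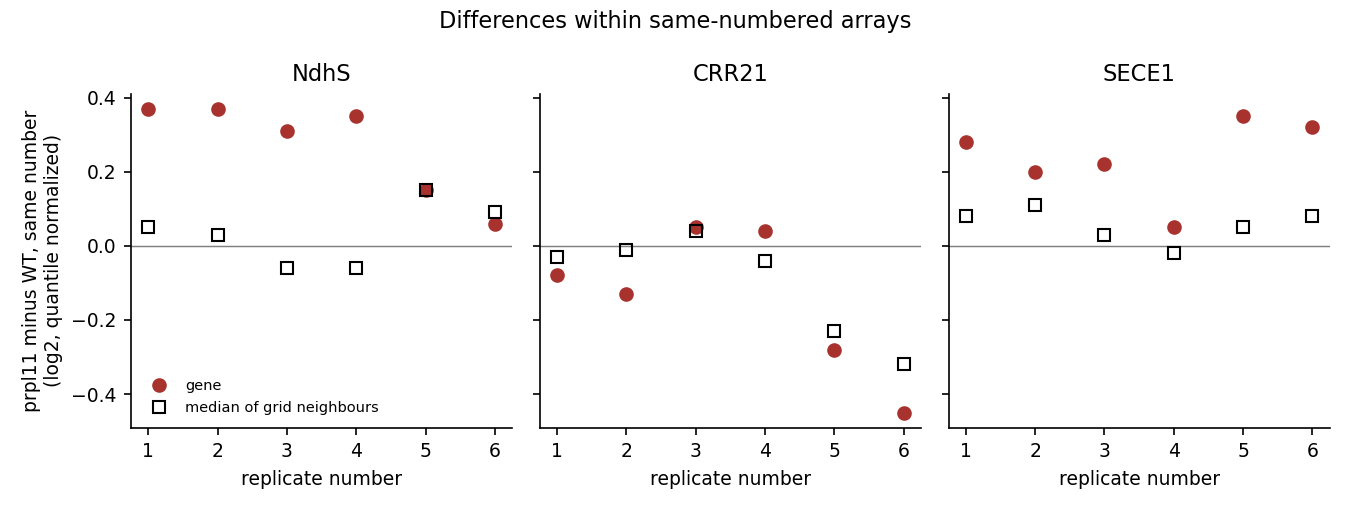
Difference between prpl11 and WT arrays of the same replicate number (log2, quantile normalized) for NdhS, CRR21 and SECE1 (filled circles), beside the median over the probes in the same and the 8 adjoining grid cells (open squares). CRR21 follows its neighbours down to -0.45 at number 6, NdhS exceeds its neighbours at numbers 1 to 4, and SECE1 exceeds its neighbours at every number.

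The genes whose quantile normalized values ran most like each of the 3 over the 12 arrays, with genotype means taken off, were found among 664 other single-gene probes. For NdhS these were CBL, the cystathionine beta-lyase of methionine synthesis (r = 0.94), AT5G06930 (r = 0.93) and AT4G19900 (r = 0.93). The deviations of NdhS depended on the scaling, and its likenesses were not computed on another scale. For CRR21 they were AT1G77730 (r = 0.98), AT4G26770 (r = 0.96) and again CBL (r = 0.96). In the inferred grid these 3 lie in the row next to that of CRR21, but not in cells that adjoin its own. AT5G06930 lies in a cell adjoining that of CRR21, and AT4G19900 in a cell adjoining that of NdhS. The part of array position in these likenesses was not tested. For SECE1 the nearest were less alike, AT3G60590 (r = 0.75), AT4G09040 (r = 0.68) and AT3G25680 (r = 0.67). The median over all other single-gene probes was -0.17 for NdhS, -0.19 for CRR21 and -0.03 for SECE1. Between genotypes, the 3 genes most like CRR21 differed by -0.16 (AT1G77730), -0.06 (AT4G26770) and -0.13 (CBL) on the log2 scale, beside -0.14 for CRR21. The other 2 most like NdhS differed by -0.17 (AT5G06930) and 0.14 (AT4G19900), and those most like SECE1 by 0.10 (AT3G60590), 0.04 (AT4G09040) and -0.09 (AT3G25680), and 0 of the 8 genes passed in limma, adjusted or at an unadjusted p under 0.05.

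**Figure D3:**
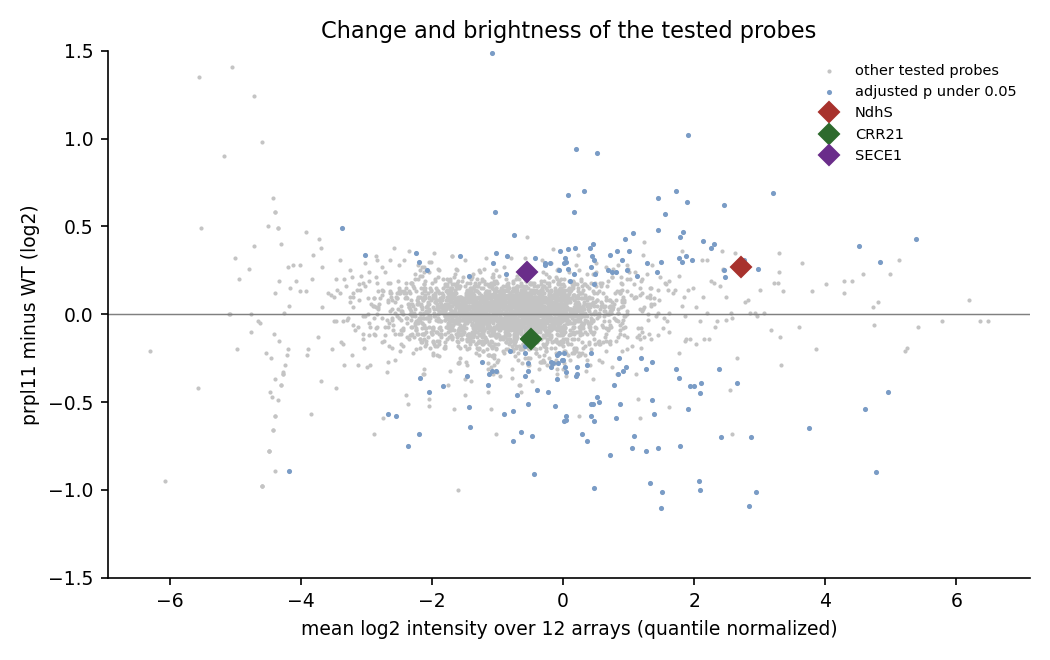
Difference between prpl11 and WT (log2) against mean log2 intensity for the tested probes, with those past the threshold in blue and NdhS, CRR21 and SECE1 as diamonds. The axis stops at 1.5 in each direction and leaves out 5 probes. NdhS lies at the bright end at 0.27, and SECE1 and CRR21 lie in the dense middle at 0.24 and -0.14.

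Other genes of the same functions were few among the named probes. Of 57 genes listed for the NDH complex, 6 had a tested probe of their own, NdhS and CRR21 among them, and 2 more were only on probes that list several genes. Of the other 4, 0 passed in limma in either direction and 0 at an unadjusted p under 0.05, with a median of 0.00, against 0.01 over all tested probes. The single-gene probes that passed made up 5.56% of those tested. None of the 12 plastid-encoded ndh entries was analysed here, nor therefore the ndhD transcript that CRR21 serves.

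NdhN, an imported subunit that belongs to the same complex as NdhS, had intensities from 0.637 to 0.783 with a median of 0.695 in prpl11, against 0.643 to 0.832 with a median of 0.687 in WT. The groups overlapped almost fully, and the log2 difference was -0.01 ± 0.08 (SE, limma adjusted p = 0.970). The assembly factor CRR41 ran from 0.621 to 0.743 in prpl11, against 0.579 to 0.754 in WT, and differed by 0.01 ± 0.08 (SE, limma adjusted p = 0.980). Cpn60beta4, a subunit of the plastid chaperonin needed to fold the plastid-encoded NdhH, ran from 0.294 to 0.398 in prpl11, against 0.309 to 0.426 in WT. Its difference was -0.05 ± 0.10 (SE, limma adjusted p = 0.887).

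OTP85, a PPR protein that, like CRR21, is needed to edit ndhD, was the one other gene of this kind with a probe of its own. Its intensities were 0.349 to 0.397 with a median of 0.367 in prpl11, against 0.325 to 0.354 with a median of 0.345 in WT. On the deposited scale 5 of 6 prpl11 arrays lay above the highest WT array, and on the normalized scale 2 did. Shares of tested probes with these patterns were not counted. The log2 difference of OTP85 was 0.11 ± 0.06 (SE, limma adjusted p = 0.443) and was higher in prpl11 in 6 of 6 pairs, as were 13.7% of tested probes. It did not pass with the replicate block either (limma adjusted p = 0.0558).

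Of 6 genes listed for the plastid Sec machinery, SECE1 and AT4G38490 had a tested probe of their own. AT4G38490, to which the gene tables give no name, was listed at 0 on 3 arrays of each genotype and reached at most 0.154 in prpl11 and 0.0654 in WT, so no fold is given (limma adjusted p = 0.995). Of 12 genes of the other routes into the thylakoid (the signal recognition particle, twin-arginine and ALB3 routes and the processing peptidases) and of 25 genes of import through the plastid envelope, none had a tested probe of its own. Whether SECE1 moved with SCY1 or SECA1 could therefore not be seen.

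For proteins that travel into the thylakoid, 4 of 15 listed genes could be tested, and 1 passed as higher and none as lower, against 2.46% and 3.06% of all tested probes. This was PSAN, a photosystem I subunit carried by the twin-arginine route, at 6.80 ± 0.96 in prpl11 and 4.64 ± 0.094 in WT (SD, n = 6 arrays each). Its log2 difference was 0.62 ± 0.06 (SE, limma adjusted p = 3.84e-05). With neighbouring numbers averaged the SE was 0.09 and PSAN passed only narrowly (limma adjusted p = 0.0448). The photosystem II proteins PSBW (-0.06 ± 0.09), PSBY (-0.19 ± 0.12) and PSB27 (0.15 ± 0.09) did not pass (log2 ± SE, limma adjusted p = 0.811, 0.518 and 0.443). With the replicate block PSBY passed as lower and PSB27 as higher (limma adjusted p = 0.0198 and 0.047), but on averages of neighbouring numbers with the number pairs as a block neither did (0.141 and 0.241).

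Of 11 genes listed for cyclic electron flow and chlororespiration, 2 had a probe of their own. PIFI, which acts in chlororespiration, ran from 0.243 to 0.301 in prpl11, against 0.249 to 0.329 in WT, with a log2 difference of -0.04 ± 0.10 (SE, limma adjusted p = 0.891). NTRC, the plastid NADPH-dependent thioredoxin reductase, ran from 0.529 to 0.897 in prpl11, against 0.570 to 0.865 in WT, with a difference of 0.06 ± 0.12 (SE, limma adjusted p = 0.897). Both genes overlapped between genotypes.

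**Figure D4:**
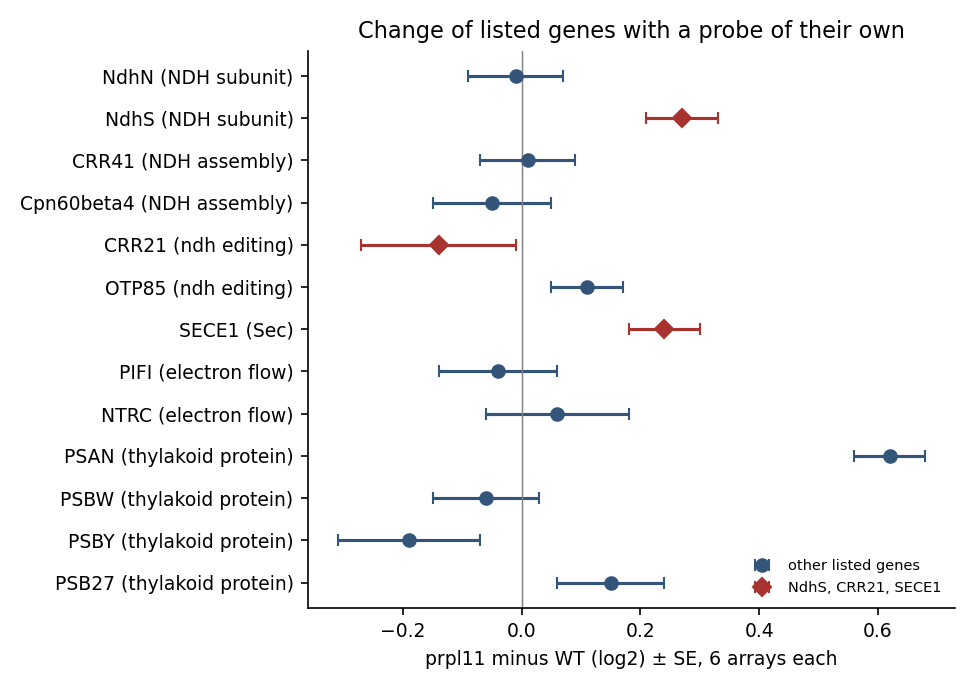
Difference between prpl11 and WT (log2, bars are SE of the limma fit, 6 arrays each) for listed genes with a probe of their own, NdhS, CRR21 and SECE1 as diamonds. AT4G38490, listed at 0 on 6 of 12 arrays, and the tissue marker PRK, at -0.51, are left out. NdhS stands at 0.27 and NdhN of the same complex at -0.01, and PSAN at 0.62 is the highest.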

How the data were processed

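RNA of 6 prpl11 and 6 WT arrays was compared, with groups and replicate numbers from the sample titles. The deposited table holds 1 intensity per probe and array, linear and never negative. That the authors scaled the arrays to one another is inferred from their similar sums, and background correction, scale reference and array type are not stated in what was used here. A value of 0 was replaced by the 1st percentile of all positive ones (0.0583) before log2 was taken. Array medians spanned 0.11, above a limit of 0.1, which called for quantile normalization. Leaving out 108 probes at 0 throughout, 3331 were fitted in limma 3.58.1 under R 4.3.3 (lmFit and eBayes with genotype as the only term; degrees of freedom were 10 residual and 2.92 prior), and p-values were adjusted by Benjamini-Hochberg over all 3331. Figures used matplotlib 3.10.9.

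Of 3439 probes 692 list 1 gene, 870 several and 1877 none; 665 of the 692 were tested. Genes were named from single-gene probes through the TAIR10.1 gene table, which matched 690. Coordinates are left out because the build behind the probes is unstated, and sequences were not used here. Deviations from genotype means correlated between same-numbered arrays at 0.288 to 0.514 in the 6 pairs, all above the limit of 0.1 by which numbers are taken to pair arrays; this rests on the values, since the labels do not say what a number marks. The number of arrays limits the precision.

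The 3 genes and the lists were chosen with earlier results of these data known. Named were the 3 genes, every listed gene with a tested single-gene probe (a list with over 6 would have been reduced to the called ones and the 4 largest changes), and for each of the 3 the 3 most alike single-gene probes. Alternatives were median centring, no normalization, a pseudocount of 0.236 (10th percentile), other filters, blocks, averaging, omissions, another variance model and array weights. Cyclic loess and grid neighbours were added after the data were seen.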

Additional observations from a re-analysis of the deposited data

Results flagged for a closer look

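Each named gene was checked in both genotypes for a single array that stood apart, in 46 sets of 6 values. This happened once, where about 1 in 20 sets (2.3) would by chance if the arrays were independent, which neighbouring numbers were not. On the log2 scale, after values of 0 were replaced, AT4G38490 was lowest on WT replicate 4. It stood at -5.18 there, while the remaining WT arrays averaged -4.09, and the gap to the nearest took up 0.841 of the range. The probe was listed at 0 on 3 arrays of each genotype, and each 0 was replaced by a floor of 0.0583. That floor lies above the smallest positive values, and WT replicate 4 held such a value. It therefore ranked below arrays listed at 0 although its own intensity was positive, so its place rests on the floor. No array of NdhS, CRR21 or SECE1 stood apart by this measure. It uses the gap to the nearest array, so it cannot find a departure that neighbouring numbers share. In prpl11, CRR21 stood at -0.99 and -0.93 on replicates 5 and 6, and between -0.42 and -0.31 on the remaining arrays.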

How the results depend on the processing

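The difference between prpl11 and WT kept its sign in the 28 alternatives run for each of NdhS (0.15 to 0.35), CRR21 (-0.24 to -0.03) and SECE1 (0.17 to 0.29). In this balanced design the blocks, averages, probe filters and variance model cannot change the difference itself. For those alternatives the sign was fixed in advance. The NdhS difference moved by more than the pooled SD within genotypes (0.10) with median centring (0.16), no normalization (0.15) and cyclic loess (0.16). With median centring the log2 SD of NdhS went from 0.03 to 0.06 in WT and from 0.14 to 0.06 in prpl11. NdhS passed in 13 of 27 alternative fits and SECE1 in 15 of 27. Neither passed without normalization, in the 3 fits that average or block neighbouring numbers within genotype, or without replicates 1 and 2. Several single omissions ended each call. With median centring and with cyclic loess NdhS did not pass either, while SECE1 passed. Leaving out 1 array gave 0.24 to 0.30 for NdhS, -0.20 to -0.06 for CRR21 and 0.21 to 0.26 for SECE1. CRR21 was -0.06 without prpl11 replicate 5 and -0.07 without prpl11 replicate 6.

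Probes called numbered 184. The replicate block gave 649 (343 higher, 306 lower in prpl11), neighbouring numbers averaged 23 (7 and 16), averages with number pairs as a block 138 (48 higher), and genotype within number pair as a random block 72 (27 and 45). Without replicates 1 and 2 of both genotypes 114 passed (53 and 61), and without 3 and 4, 96 (39 and 57). Without normalization 51 were higher. Higher calls were 44.6% of calls, 32.2% with median centring, 28.2% without normalization and 52.9% with the replicate block. Leaving out 1 array gave 142 to 180 calls, 56 to 82 higher and 81 to 98 lower.

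Among the 11 tested genes of the pathway lists other than the 3 (PRK, a tissue marker, is not among them), 1 was called higher and 0 lower; with the replicate block 2 were higher and 1 lower, and in the other 26 fits 1 and 0, single omissions included. The replicate block changed no other call of a listed gene. The call of PRK as lower was lost with neighbouring numbers averaged, the random block, and without replicates 3 and 4 (limma adjusted p = 0.205, 0.0925 and 0.0543). Probes near 0, such as AT4G38490, have no reliable size of change.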
